A study of Mus musculus with 6 samples.

Results

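The 9 genes described here are the mouse genes of the MHC class II pathway that were looked up by symbol: H2-Aa, H2-Ab1, H2-Eb1, Cd74, Ciita, H2-DMa, H2-DMb1, H2-DMb2 and H2-Ob. All 9 were found among the 47561 features of every library, and all 9 had at least 1 FPKM (a fragment count corrected for transcript length and library size) in at least 3 libraries, the level at which 8523 genes were tested. Each library was made from total RNA of mouse peripheral blood neutrophils that had been isolated by flow cytometry. There were 3 negative control samples and 3 samples taken after AVP had been given for 30 days. The labels do not expand AVP, and they give no strain, age, sex, dose or vehicle. They do not state whether each sample is a different animal, and the p-values here rest on the spread between samples, which may be technical.

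MHC class II molecules are pairs of an alpha and a beta chain that display peptides from the endosome to CD4 T cells. The invariant chain, encoded by Cd74, holds the groove closed until the pair reaches the endosome. There H2-DM exchanges the last invariant chain fragment for antigenic peptide, and H2-O restrains H2-DM in B cells. Transcription of these genes depends on the coactivator CIITA, which docks on factors bound to the X and Y boxes of their promoters. B cells, dendritic cells and some monocytes carry class II at rest, whereas resting blood neutrophils are known for little of it.

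The X and Y boxes are shown first because CIITA acts through them at class II genes. RefSeq promoters of GRCm38.p6, from 250 bases before to 50 after a start site, were present for 6 of the 9 genes (7 start sites). H2-Ab1, Cd74 and Ciita had no entry. The lines below run 5′ to 3′ on the strand of the gene, with positions counted back from the start site. Capitals mark the Y box letters GATTGG and, before them, either the X box letters AACNNATGATG or, for H2-Aa, the cyclic AMP response element TGACGTCA.
H2-Aa, chr17:34287864-34287953, minus strand: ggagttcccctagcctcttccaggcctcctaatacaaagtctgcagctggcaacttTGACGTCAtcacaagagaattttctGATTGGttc
H2-Eb1, chr17:34305737-34305826, plus strand: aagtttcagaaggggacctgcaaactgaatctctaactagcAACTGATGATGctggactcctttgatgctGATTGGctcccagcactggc
H2-DMb2, chr17:34145119-34145208, plus strand: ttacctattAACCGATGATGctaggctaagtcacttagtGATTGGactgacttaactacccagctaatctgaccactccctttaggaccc
H2-Ob, chr17:34238775-34238864, plus strand: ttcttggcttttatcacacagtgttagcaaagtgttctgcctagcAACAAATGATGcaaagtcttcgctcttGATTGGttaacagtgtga

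The spacing of these letters was alike. In H2-Eb1, H2-DMb2 and H2-Ob the X letters ended 18, 19 and 16 bases before the Y letters, and in H2-Aa the response element ended 17 bases before them. H2-DMb1 had the same X and Y order with 19 bases between them, and its window is not printed because another annotation (GENCODE M21) places it within an exon. Searched on both strands of all 32851 promoters of this length, GATTGG was in 16.1%, TGACGTCA in 1.79% and AACNNATGATG in 0.137%. X letters followed 10 to 35 bases later by Y letters on the same strand were in 4 promoters, which were those of H2-Eb1, H2-DMb1, H2-DMb2 and H2-Ob. The X letters were read from these same promoters, so this count describes them and is no test. TGACGTCA followed by Y letters at that spacing and on the same strand was in 17 promoters (0.052%), that of H2-Aa among them. Neither of the 2 H2-DMa start sites had such a pair. Only these letters were searched, so a missing match, as of the X letters in H2-Aa, does not show that the box is absent.

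**Figure D1:**
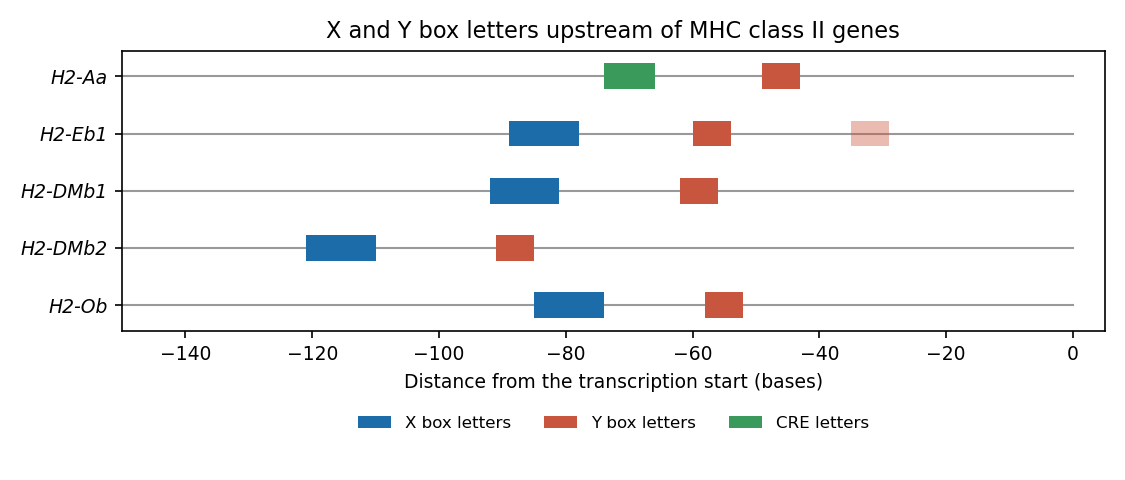
Positions of the X box letters (blue), the cyclic AMP response element (CRE, green) and the Y box letters (red) on the x axis, in bases from the RefSeq start site, for 5 MHC class II genes. The first motif lies 16 to 19 bases before the Y letters in all 5, and the paler bar in H2-Eb1 is a Y match on the opposite strand.

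H2-Aa, H2-Ab1, H2-Eb1 and Cd74 were among the more abundant transcripts, at percentiles 95.9 to 99.4 of the tested genes, while H2-DMa stood at percentile 72.9 and Ciita at 16.4. The 9 genes summed to 0.43%, 0.392% and 0.416% of a library's FPKM in control replicates 1 to 3, and 0.172%, 0.476% and 0.379% in AVP replicates 1 to 3. On the FPKM scale, which is per length, Cd74 and H2-Aa stood highest, with medians of 1254 and 1070 FPKM over the 6 libraries, and the Cd74 to H2-Aa ratio ran from 0.767 to 2.14, so their order changed between libraries. H2-Ab1 (median 310 FPKM) lay above H2-Eb1 (221 FPKM) in all 6. H2-DMb2 (89.8 FPKM), H2-Ob (51.4 FPKM), H2-DMb1 (36.3 FPKM) and H2-DMa (15.6 FPKM) followed, each neighbouring pair changing places in at least 1 library. Ciita was lowest, with a median of 1.37 FPKM.

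The neutrophil label was matched by its markers, and B cell transcripts were present beside them. S100a8 and S100a9, the calprotectin genes that dominate neutrophil RNA, took 18.4% to 23.9% of the total FPKM. All 18 B cell markers were above 0 in all 6 libraries, among them the antigen receptor gene Cd79a, and their summed level was 5187 to 8132 FPKM in control libraries and 1424 to 5205 FPKM with AVP, lowest in AVP replicate 1. Except in AVP replicate 1, most of that sum was the immunoglobulin gene Igkc, and the other 17 markers summed to 1779, 1904 and 1832 FPKM in control replicates 1 to 3 and to 771, 1905 and 1474 FPKM in AVP replicates 1 to 3, so the groups overlapped. Taken singly, 6 of the 18 markers were lower in every AVP library than in any control, against 7.63% of all genes tested. The reverse held for 1, the immunoglobulin gene Ighd, against 6.39% of all genes. The fitted log2 fold change was below 0 for 14 of the 18, with a median of -0.81, and none passed at an adjusted p under 0.05. Haemoglobin and other red cell transcripts were also abundant, with a summed level of 102660 to 154850 FPKM in 5 libraries and 242550 FPKM in AVP replicate 1, above that library's 165380 FPKM of neutrophil markers. Of 10 dendritic cell markers, Xcr1, Cd209a and Siglech were listed at 0 in every library, and the summed level was 15 to 24.7 FPKM in control libraries and 12 to 45.9 FPKM with AVP. Of 12 monocyte markers none was at 0 in all libraries, with sums of 282 to 659 FPKM in control libraries and 133 to 576 FPKM with AVP. Of 10 T cell markers Cd3e, Cd4 and Cd8a were listed at 0 in every library, and the sum was at most 13.7 FPKM except in AVP replicate 3 (122 FPKM). Basophil markers summed to 325 FPKM in AVP replicate 1 and to at most 15.3 FPKM in the others. The part of these cells in the class II values was not tested. In bulk RNA, fewer cells of a type and less RNA per cell cannot be told apart.

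Comparing AVP with control asks whether class II expression in the sorted cells changed with AVP. None of the 9 genes passed the test, and the groups overlapped for all 9. In limma's test across 8523 genes, their adjusted p lay between 0.78 and 0.984. No gene of the whole table passed at an adjusted p under 0.05 either (0%), while 722 (8.47%) had an unadjusted p under 0.05, of which 0 were class II genes. Groups did not overlap, with AVP lower, in 7.63% of all genes and, with AVP higher, in 6.39%. All 9 fitted differences were below 0, as were 52.1% of those of all genes, and their median was -0.46 on the log2 scale beside -0.04 over all genes. Without AVP replicate 1 that median was 0.04 and 3 of the 9 were below 0. The median was -0.17 without control replicate 1, -0.25 without control replicate 2 and -0.61 without control replicate 3. Without AVP replicate 2 it was -0.56, and without AVP replicate 3 it was -0.54.

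**Figure D2:**
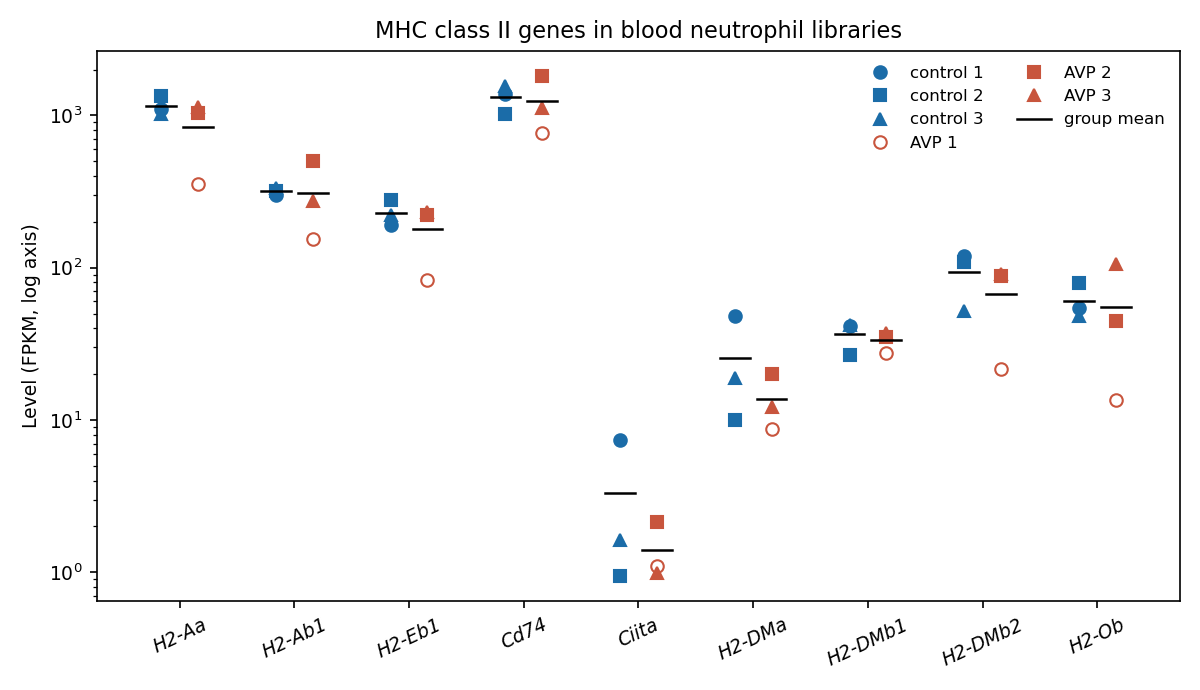
Level of each MHC class II gene in FPKM (y axis, log scale) in the 3 control libraries (blue) and the 3 AVP libraries (red), with replicates 1 to 3 as circles, squares and triangles and the group means as bars. AVP replicate 1 (open circle) is the lowest of the 6 libraries for 7 of the 9 genes, and the groups overlap for all 9.

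H2-Aa encodes the alpha chain of the I-A molecule (gene identifier 14960, chromosome 17 from 34282744 to 34287823 in GRCm38). Its level was 1106, 1342 and 1016 FPKM in control libraries and 357, 1033 and 1141 FPKM with AVP. A single library, AVP replicate 1, stood apart, and the other 2 AVP libraries lay within the control range. Its log2 fold change was -0.53 (SE 0.38, 95% interval -1.41 to 0.35, limma adjusted p = 0.78), and it was -0.053 without AVP replicate 1 and -0.82 without AVP replicate 3.

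H2-Ab1 encodes the beta chain that pairs with it (gene identifier 14961, chromosome 17 from 34263227 to 34269418). It was at 299, 321 and 334 FPKM in control replicates and at 154, 499 and 274 FPKM with AVP. Controls lay close together, and the AVP libraries lay both below and above them. The log2 fold change was -0.12 (SE 0.35, 95% interval -0.93 to 0.70), and its sign turned without AVP replicate 1 (0.24).

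H2-Eb1 encodes the beta chain of the I-E molecule (gene identifier 14969, chromosome 17 from 34305867 to 34316674). Controls were at 191, 276 and 220 FPKM and AVP libraries at 82.9, 221 and 234 FPKM. As with H2-Aa, AVP replicates 2 and 3 lay within the control range and AVP replicate 1 below it. The log2 fold change was -0.39 (SE 0.38, 95% interval -1.26 to 0.48), and 0.030 without AVP replicate 1. H2-Ea, which would encode the I-E alpha chain and is annotated as a transcribed pseudogene in the C57BL/6J reference, was listed at 0 in all 6 libraries.

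Cd74 encodes the invariant chain (gene identifier 16149, chromosome 18 from 60803849 to 60812652). It was at 1384, 1028 and 1569 FPKM in control replicates and at 762, 1820 and 1124 FPKM with AVP, so the AVP group held both the lowest and the highest of the 6 values. The difference was the best bounded of the 9, with a log2 fold change of -0.09 (SE 0.29, 95% interval -0.75 to 0.58). Its sign turned without AVP replicate 1 (0.16) and without control replicate 3 (0.04).

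Ciita encodes the coactivator without which the other genes are hardly transcribed (gene identifier 12265, chromosome 16 from 10480014 to 10531064). Its level was 7.34, 0.95 and 1.63 FPKM in control libraries and 1.11, 2.14 and 0.984 FPKM with AVP. Control replicate 1 was far above the rest, and the other 5 libraries lay within 0.95 to 2.14 FPKM. At the estimated depth these levels stand for about 86 to 630 fragments. The log2 fold change was -0.52 (SE 0.69, 95% interval -2.12 to 1.08), and 0.10 without control replicate 1.

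H2-DMa encodes the alpha chain of the peptide exchange factor H2-DM (gene identifier 14998, chromosome 17 from 34119693 to 34139101). It was at 47.9, 10 and 19 FPKM in control replicates and at 8.68, 20.1 and 12.2 FPKM with AVP. Control replicate 1 was again the highest library. The log2 fold change was -0.59 (SE 0.60, 95% interval -1.98 to 0.80), and it was -0.021 without control replicate 1 and -1.08 without control replicate 2.

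H2-DMb1 and H2-DMb2 encode alternative beta chains of H2-DM (gene identifiers 14999 and 15000) and lie next to each other on chromosome 17, from 34153191 to 34160229 and from 34143229 to 34151553. Their coding sequences of 783 bases were 95.9% identical, so how the fragments were divided among the pair is uncertain. H2-DMb1 was at 41.2, 26.6 and 41.9 FPKM in control replicates and at 27.4, 35.3 and 37.4 FPKM with AVP, the steadiest of the 9 genes with a 1.58-fold range over the libraries. H2-DMb2 was at 119, 108 and 51.8 FPKM in control replicates and at 21.7, 88.8 and 90.8 FPKM with AVP, a 5.47-fold range with AVP replicate 1 lowest. Their log2 fold changes were -0.03 (SE 0.34, 95% interval -0.81 to 0.75) for H2-DMb1 and -0.55 (SE 0.56, 95% interval -1.84 to 0.75) for H2-DMb2. Within a library, the ratio of H2-DMb2 to H2-DMb1 ran from 0.793 in AVP replicate 1 to 4.08 in control replicate 2.

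H2-Ob encodes the beta chain of H2-O, the inhibitor of H2-DM (gene identifier 15002, chromosome 17 from 34238905 to 34245908). It was at 54.4, 79.3 and 48.4 FPKM in control replicates and at 13.5, 44.9 and 106 FPKM with AVP, the widest range of the 9 genes (7.88-fold). The AVP group held both extremes. The log2 fold change was -0.46 (SE 0.64, 95% interval -1.94 to 1.02), and 0.24 without AVP replicate 1. Exact permutation tests over the 6 libraries, two-sided, gave p = 0.5 to 0.9 for the 9 genes, where 3 against 3 cannot go below 0.1.

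**Figure D3:**
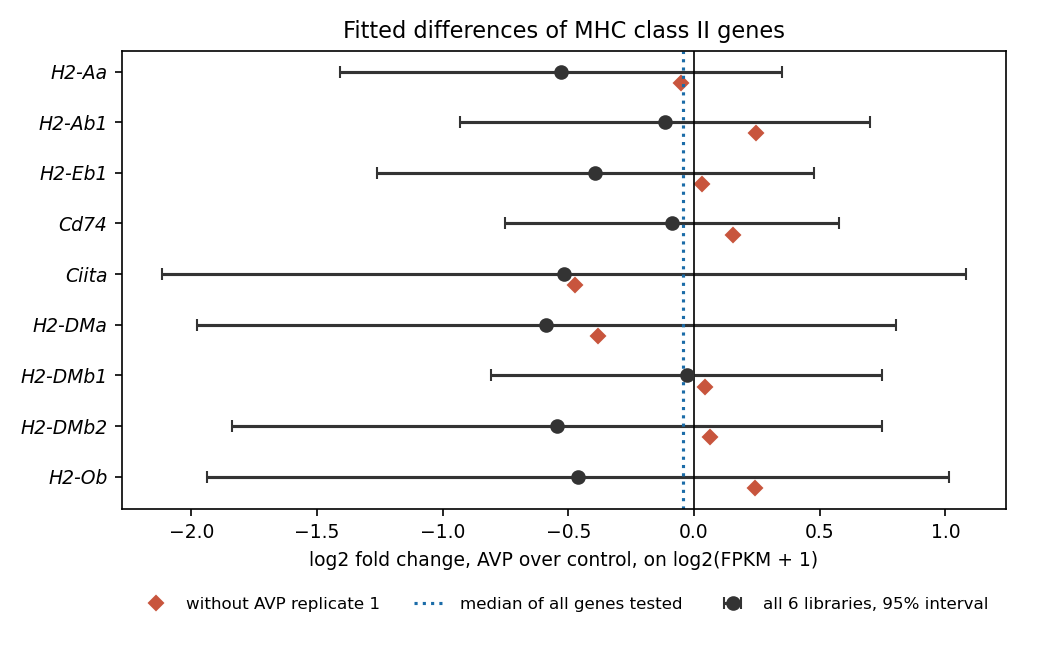
Log2 fold change of AVP over control for each MHC class II gene (x axis, fitted on log2(FPKM + 1)), with all 6 libraries as black points with 95% intervals and without AVP replicate 1 as red diamonds. All 9 intervals span 0, and 6 of the 9 values lie above 0 once AVP replicate 1 is left out.

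H2-Oa encodes the alpha chain that pairs with H2-Ob and was listed among other genes of the class II region. It was at 89.6, 133 and 63 FPKM in control replicates and at 15.8, 83.7 and 2.16 FPKM with AVP, with a log2 fold change of -2.40 (SE 1.02, limma adjusted p = 0.572). The ratio of H2-Oa to H2-Ob was 1.65, 1.67 and 1.30 in controls and 1.18 and 1.86 in AVP replicates 1 and 2, but 0.0203 in AVP replicate 3, where H2-Ob was at its highest. That pair therefore went opposite ways in a single library. H2-Eb2, a further beta chain gene, was at 3.95 ± 1.36 FPKM in control libraries and 3.96 ± 2.77 FPKM with AVP (SD, n = 3).

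AVP replicate 1 was the lowest library for 7 of the 9 genes, on the deposited and the scaled values, whereas it was the lowest for 18% of all genes tested on the scaled values. The exceptions, Ciita and H2-DMb1, were lowest in control replicate 2. The level in AVP replicate 1 was 0.239 (H2-DMb2) to 0.734 (H2-DMb1) of the median of the other 5 libraries. The genes differed in how far they went together. Over the 36 pairs, Pearson's r across the 6 libraries on the log2 scale had a median of 0.45 and ran from -0.08 to 0.98, and without AVP replicate 1 the median was -0.12. These are descriptions over 6 libraries that share their total, with no test.

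The B cell marker Cd79a, part of the B cell antigen receptor, stood at 415, 464 and 466 FPKM in control replicates and at 244, 628 and 405 FPKM with AVP, lowest and highest in the same libraries as H2-Ab1 and Cd74. The ratio of H2-Ab1 to Cd79a was 0.722, 0.692 and 0.716 in controls and 0.629, 0.795 and 0.678 after AVP. It ranged 1.26-fold over the libraries, against 3.24-fold for H2-Ab1 itself. The ratio of Cd74 to Cd79a was 3.34, 2.22 and 3.36 in controls and 3.12, 2.90 and 2.78 after AVP. Cd79a was picked for this after its values were seen. Over the 18 B cell markers the H2-Ab1 ratio ranged more narrowly than H2-Ab1 alone for 5, and the Cd74 ratio more narrowly than Cd74 alone for 2. The same held over 9 neutrophil markers for 4 with H2-Ab1 and for 3 with Cd74, so a narrow ratio was not found with B cell markers alone. Of the 18 B cell markers, H2-Aa held closest to Cd79b, the partner chain of Cd79a, with a ratio that ranged 1.56-fold against 3.76-fold for H2-Aa. Its ratio ranged more narrowly than H2-Aa alone for 7 of the 18 B cell markers and for 3 of the 9 neutrophil markers. The median range over the 18 was 5.23-fold, wider than that of H2-Aa. H2-DMb1, which itself ranged only 1.58-fold, had no such marker among the 18. The same held for the 9 neutrophil markers and for the 7 monocyte markers above 0 in every library, so this was not particular to B cell markers.

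**Figure D4:**
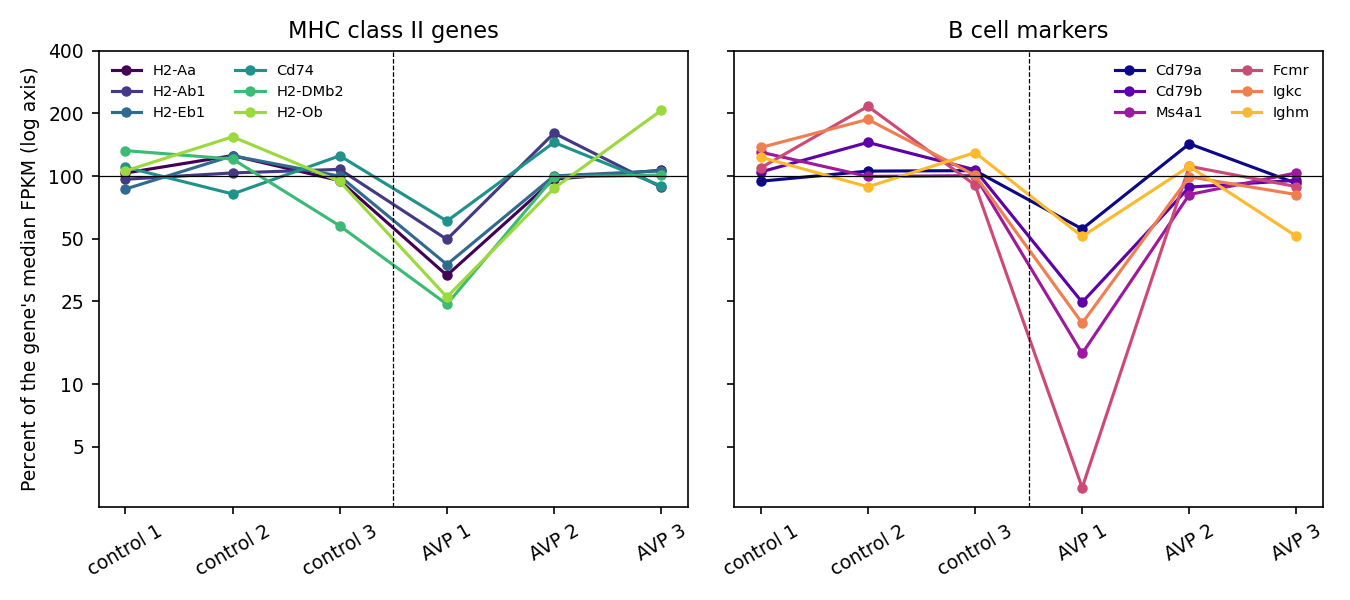
Level of 6 MHC class II genes (left) and 6 B cell markers (right) in each library, as a percent of the gene's median FPKM (y axis, log scale). Lines join the values of a gene and imply no order, and all 12 genes are low in AVP replicate 1, with Cd79a and H2-Ab1 highest in AVP replicate 2.

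**Figure D5:**
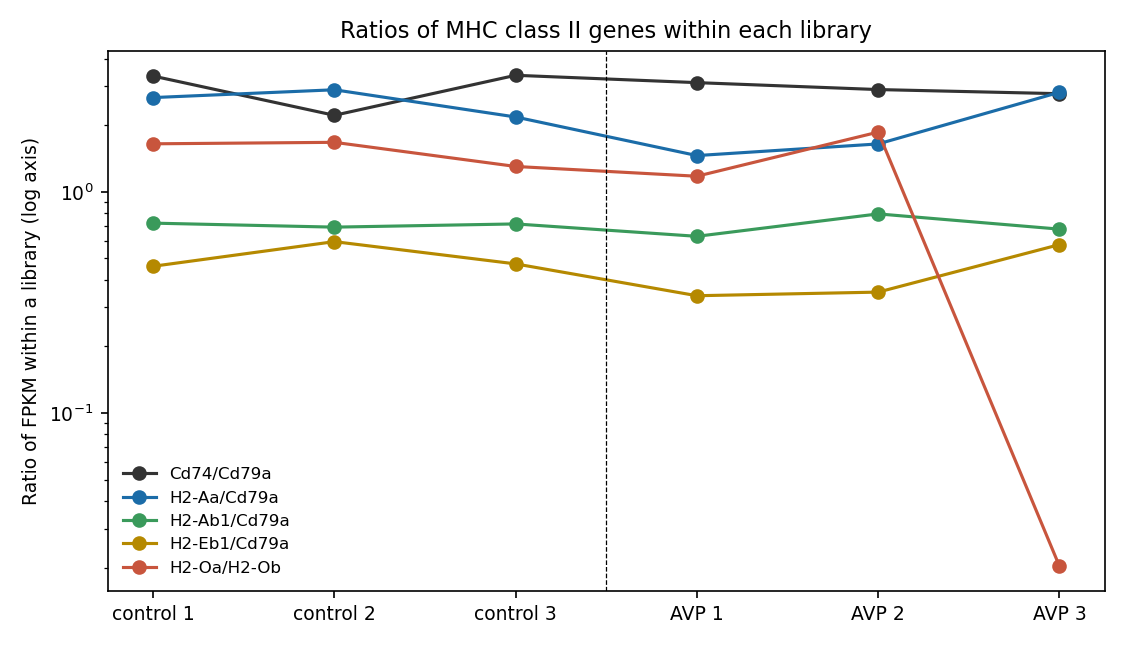
Ratios of FPKM between pairs of genes within each library (y axis, log scale), with lines joining the values of a ratio and implying no order. The 4 ratios to Cd79a drawn here range 1.26-fold to 1.98-fold, while the ratio of H2-Oa to H2-Ob is 0.0203 in AVP replicate 3 and 1.18 to 1.86 elsewhere. For the class II genes not drawn, the ratio to Cd79a ranged from 2.00-fold (H2-DMb1) to 8.64-fold (Ciita).

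Among 5275 genes with a mean of at least 5 FPKM, the 10 whose pattern was most like the mean of H2-Aa, H2-Ab1, H2-Eb1 and Cd74 had Pearson's r of 0.974 to 0.99 over the 6 libraries. They were Mapk1ip1l, Blnk, Copb2, Zmiz1, Commd3, Ramp1, Surf1, Rpl6, Rbm7 and Chrac1, of which Blnk encodes an adaptor of B cell receptor signalling and Rpl6 a ribosomal protein. All 10 were lowest in AVP replicate 1. Blnk was at 28.1, 40.9 and 43.6 FPKM in control replicates and at 1.16, 45.7 and 33.8 FPKM with AVP. Without AVP replicate 1 their r ran from 0.52 to 0.94, so the likeness rested in part on that library. Of 17 B cell markers ranked, 6 were in the top 10% of genes, and their r had a median of 0.39 over the 6 libraries and of -0.09 without AVP replicate 1. They differed widely, Cd79a being at 0.93 and 0.98 without that library and Ms4a1 at 0.91 and -0.95. Monocyte markers ran from -0.44 (Treml4) to 0.79 (Csf1r), and without that library from -0.40 to 0.86 for the same genes. Between these, Ccr2, Adgre1, Ms4a4c and Ly6c2 were at 0.28, 0.04, -0.11 and -0.41 over the 6 libraries. Without AVP replicate 1 they were at 0.85, 0.85, 0.31 and 0.63, so that Treml4 alone of the monocyte markers ranked was below 0. The dendritic cell marker Itgax was at 0.66 and, without that library, 0.67. Neutrophil markers ran from -0.85 (Csf3r) to 0.22 (Mmp8), and without that library from -0.97 (Csf3r) to 0.50 (Retnlg).

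Of 43 further genes listed for the pathway, 42 were found and 36 tested. None passed over all genes, an unadjusted p under 0.05 was reached by 2 with AVP higher and 2 with AVP lower (4.72% and 3.75% of all genes), and the median log2 fold change was -0.01. Cd44 and Cxcr4, surface partners of CD74 in signalling by the cytokine MIF, were the 2 on the higher side, and Cxcr4 was named for this after its values were seen. Cd44 was at 164, 156 and 220 FPKM in control replicates and at 276, 273 and 412 FPKM with AVP, a log2 fold change of 0.91 (SE 0.26, limma adjusted p = 0.336). Cxcr4, the receptor that retains neutrophils in bone marrow, was at 26.5, 35.9 and 27.3 FPKM in control replicates and at 51.9, 59.7 and 63.1 FPKM with AVP, a log2 fold change of 1.03 (SE 0.31, limma adjusted p = 0.351). For both genes every AVP library lay above every control library, as it did for 6.39% of all genes tested. They were the only 2 of the 36 pathway genes tested with that pattern. In the same list the log2 fold change was 0.86 for Mif (SE 0.69) and -0.03 for Cxcr2 (SE 0.29).

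The 8 proteases and reductases that prepare antigen and trim the invariant chain were all tested, with 3 below 0 and a median of 0.04. Ctss encodes cathepsin S, which makes the last cut of the invariant chain, and was at 230, 434 and 461 FPKM in control replicates and at 278, 488 and 85.4 FPKM with AVP (log2 fold change -0.57, SE 0.59). AVP replicate 3 was its lowest library. The aspartic protease gene Ctsd (0.37, SE 0.32) and Ifi30, which encodes a lysosomal thiol reductase (0.26, SE 0.39), did not pass either.

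Of 7 genes for factors that bind the promoters 5 were tested, 1 was below 0, and the median was 0.23. Nfyb and Nfyc, subunits of the Y box factor NF-Y, were at 10.3 ± 6.51 and 9.07 ± 7.80 FPKM in control replicates and at 11.2 ± 5.61 and 12.1 ± 6.46 FPKM with AVP (SD, n = 3). Creb1, whose product binds cyclic AMP response elements, was at 9.47 ± 4.20 and 9.98 ± 1.71 FPKM (SD, n = 3). Rfx5, a subunit of the X box factor RFX, was at most 1.58 FPKM in any library and listed at 0 in 3 (named after its values were seen).

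Of 11 genes that induce or repress Ciita 10 were tested, 7 were below 0 and the median was -0.27. Jak1, a kinase of the interferon gamma receptor, was at 101, 73 and 73.6 FPKM in control replicates and at 37.4, 37.7 and 53.9 FPKM with AVP. Its log2 fold change was -0.84 (SE 0.30, limma adjusted p = 0.471), and it was named for its unadjusted p after its values were seen. Spi1, the myeloid and B cell transcription factor PU.1, differed by 0.84 in log2 fold change (SE 0.38), the receptor gene Ifngr2 one of -0.41 (SE 0.30) and Irf1, an interferon-induced factor, one of 0.09 (SE 0.36). Of the 9 turnover and costimulation genes 7 were tested, with 4 below 0 and a median of -0.36. Among them Marchf1, a ubiquitin ligase that removes class II from the surface, was at 23.2 ± 11.3 FPKM in control libraries and 14.4 ± 4.29 FPKM with AVP (SD, n = 3). Cd40, the receptor for T cell help, was at 54.5 FPKM in control replicate 2 and at 4.42 to 10.9 FPKM in the other libraries. Cd83, which counters Marchf1, was at 10.6, 0.0617 and 33.1 FPKM in control replicates and at 8.36, 17.5 and 0 FPKM with AVP, so its lowest 2 values came from different groups.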

How the data were processed

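Per the labels' protocols, TRIZOL-extracted RNA went into TruSeq preparation and paired NovaSeq reads. The submitters' processing notes name bcl2fastq 2.19, cutadapt 1.16.5, HISAT2 2.1, featureCounts 1.6.4, DESeq2 2.11.40.6 and mm10, without the role of each. The authors deposited 1 table per library, whose values are taken as FPKM because they are not whole and their totals differ (755140 to 829725). The files used here hold no counts, so depth (14199000 to 16845000 fragments) was estimated from the spacing of low values of short pseudogenes, and the fragments given for a gene use its longest coding GENCODE transcript.

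Scaling used the trimmed mean of log ratios (30% of ratios and 5% of levels off each end). Values were analysed as log2(FPKM + 1), which understates changes of low genes, with limma 3.58.1 in R 4.3.3, an intensity trend, no replicate term and Benjamini-Hochberg adjustment over all 8523 genes. Simulated data were used to try the procedure. For true absolute log2 fold changes of 1, 2 and 4, it called 4 of 67, 28 of 67 and 56 of 66 genes. Most true changes of 1 were therefore missed. Among 7850 genes with no simulated difference, 7 were called. The genes given a difference had at least 20 FPKM, and the medians of Ciita and H2-DMa lay below that level. Printed FPKM are as deposited. Python 3.11.15, scipy 1.17.1 and Biopython 1.88 served the rest. Features were matched by symbol to RefSeq (44705 of 47561), whose coordinates are GRCm38.

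The members and lists were chosen with earlier results of these data known. Genes named are the 9 members, the up to 3 highest of each pathway list and the 10 most alike. Other names were chosen after their values were seen. Alternatives were other scalings, filters, pseudocounts and moderation, a replicate block, and leaving out each library.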

Additional observations from a re-analysis of the deposited data

Results flagged for a closer look

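Dendritic cells are a class II-rich blood cell. Of their markers, 4 lay outside the tested genes, were listed at 0 in all 3 controls and were above 0 in some AVP library. These 4 were picked for that pattern, so their absence from the controls was set by the choice and is no test. How common the pattern is among all features was not counted. Clec10a was at 11.7 FPKM and Ccr9 at 1.82 FPKM in AVP replicate 2. Clec9a was at 6.12 FPKM in AVP replicate 3. Batf3 reached 6.15 FPKM in AVP replicate 2 and, in AVP replicate 3, 8.03 FPKM. None of the 4 was above 0 in AVP replicate 1. Of the other 6 markers on the list, Xcr1, Cd209a and Siglech were at 0 throughout, Zbtb46 was above 0 in control replicate 2 only, and the tested Itgax and Flt3 had log2 fold changes of -0.39 and 0.39 with overlapping groups. Their part in the class II values was not tested.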

How the results depend on the processing

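No class II gene passed limma's test under any alternative run, and the adjusted p of the 9 ranged from 0.541 to 0.996 over all of them. With all 6 libraries every class II gene tested kept a fitted difference below 0. The 10 FPKM filter left out Ciita. The sign turned only where a library was left out, and there the log2 fold changes ranged from -0.49 to 0.24 for H2-Ab1, -0.64 to 0.030 for H2-Eb1, -0.36 to 0.16 for Cd74, -0.93 to 0.10 for Ciita, -0.23 to 0.076 for H2-DMb1, -0.92 to 0.063 for H2-DMb2 and -1.13 to 0.24 for H2-Ob. It kept its sign for H2-Aa (-0.82 to -0.05) and H2-DMa (-1.08 to -0.02). Their cause was not tested. Over all genes 0 passed, and the count higher after AVP was 11 with the 10 FPKM filter, where fewer genes were tested, 3 with a pseudocount of 5, 1 with no intensity trend, and 0 to 4 with a library left out (4 without control replicate 3). The cause of the last 3 was not tested. With the replicate number as a block, 0 genes were higher and 0 lower, and the class II median stayed at -0.46. Deviations of same-numbered libraries correlated at 0.02, -0.01 and -0.04 over genes, and of the 9 pairings of a control with an AVP library the highest, control replicate 3 with AVP replicate 2, was 0.05, so the numbers were not taken as pairs. With 3 libraries a group the 95% intervals reached from -0.75 to 0.58 at the narrowest (Cd74) and from -2.12 to 1.08 at the widest (Ciita), and changes within them are not excluded.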
